A study of Saccharomyces cerevisiae with 8 samples.

Results

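SER3, SER33, SER1 and SER2 encode the enzymes by which baker's yeast makes serine from a glycolytic intermediate, and their RNA levels were read from arrays of 4 yeast strains. Each gene was named alone by 1 probe set in the platform annotation, so the group is 4 probe sets for 4 of the 5656 genes that probe sets on the array named alone. The group was chosen by measured values of SER3: its signal had been noted as high in both strains that lack SPT3. The differences of SER3 that involve the spt3 strain or the double mutant are therefore descriptions and carry no test, while the other 3 genes were added for their place in the pathway.

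Besides the wild-type reference there were a not1-2 strain, an spt3 strain and the not1-2 spt3 double mutant, with 2 samples each, 8 in all. The Ccr4-Not complex, which acts on transcription and mRNA decay, is built on Not1; Spt3 belongs to SAGA, a coactivator, and contacts the TATA-binding protein. All 4 strains were grown for 24 h at 30°C in a rich glucose medium, moved at an optical density of 0.2 to 37.5°C, where not1-2 is restrictive, and collected at 0.8, so the wild type went through the heat step too. The labels do not say whether a strain's samples came from separate cultures; every p-value here reflects only how far these samples spread, and that spread may be technical.

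Serine synthesis leaves glycolysis at phosphoglycerate. The isozymes Ser3 and Ser33 oxidise it, Ser1 adds the amino group, and Ser2 removes the phosphate to give serine. In yeast grown with serine, SER3 is known to be kept low by transcription of SRG1, a noncoding RNA made across its promoter. SRG1 is activated through Cha4, with SAGA and the Swi/Snf remodeller known to take part.

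The strains carried other differences that touch these comparisons. SPT3 gave signals between 15.5 and 29.9 in wild type and not1-2 and was at the floor of 1.72, the lowest level used, on all 4 arrays labelled spt3. TRP1 was at that floor on the 4 arrays with SPT3 and gave 36.0 to 56.2 on the 4 without it. The pheromone gene MFA2 gave 4972 and 1448 in wild type and 7.445 to 17.98 in the mutants, and MF(ALPHA)1 gave 14.9 and 17.1 against 534 to 1617. Mutants and wild type thus differed in mating-type expression as well, and strains with and without SPT3 differed in TRP1; their part in the results below was not tested. For the ACT1 control, signal at the 3' end over that at the 5' end, a sign of RNA quality, was 199.1, 36.8, 5.83 and 12.2 on the replicate 1 arrays of wild type, not1-2, spt3 and the double mutant, and 1.79 to 2.10 on the replicate 2 arrays. In bulk RNA, fewer expressing cells and less RNA per cell cannot be told apart.

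SER3, one of the isozymes of the first step, had the widest range of the 4 genes. Its median-centred signals, the values tested throughout, were 5.08 and 9.92 in wild type, 10.6 and 17.99 in not1-2, 59.6 and 64.9 in spt3, and 51.2 and 74.8 in the double mutant. All 4 arrays without SPT3 lay above all 4 arrays with it, the lowest of them 2.85-fold above the highest of the others. Both wild-type arrays were the lowest, and the not1-2 arrays lay between them and the rest without overlapping either. The geometric means were 7.10, 13.8, 62.2 and 61.9, with SDs of 0.68, 0.54, 0.09 and 0.39 on the log2 scale (n = 2 each).

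SER3 lay 8.76-fold higher in spt3 than in wild type, 8.71-fold higher in the double mutant than in wild type, and 4.48-fold higher in the double mutant than in not1-2. In the replicate 1 arrays these ratios were 11.7, 10.1 and 4.83, and in the replicate 2 arrays, whose ACT1 ratios were near each other, 6.54, 7.53 and 4.16. When the fit held both the replicate block and the ACT1 ratio, the log2 differences were 2.73, 2.81 and 2.03 in place of 3.13, 3.12 and 2.16. The last of the 3 compares strains that are both low in MFA2, at 17.98 and 11.5 in not1-2 and at 15.0 and 17.5 in the double mutant. Of the 10 mating-type genes checked, 1 lay above 0 in this contrast. Their median log2 difference was -0.59, against 0.06 over all probe sets. MFA1, another pheromone gene, was the only one to pass, with the block, at -2.16 (limma adjusted p = 0.0316, and 0.719 without the block). Of all probe sets 2.36% passed with the block in this contrast. SAG1, an alpha-specific gene, was at -1.75 (limma adjusted p = 0.0544 with the block, and 0.411 without it). The part of these genes in the SER3 difference was not tested. The SER3 values above chose the gene, and the background is given with them for scale: 248 of 7043 probe sets, 3.52%, had all 4 arrays without SPT3 above all 4 with it. By the size of the gap between those groups SER3 ranked 3 of 7043, after TRP1 with a gap of at least 21.0-fold, since TRP1 was at the floor on the 4 arrays with SPT3, and YDR034C-A with 3.17-fold.

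**Figure D1:**
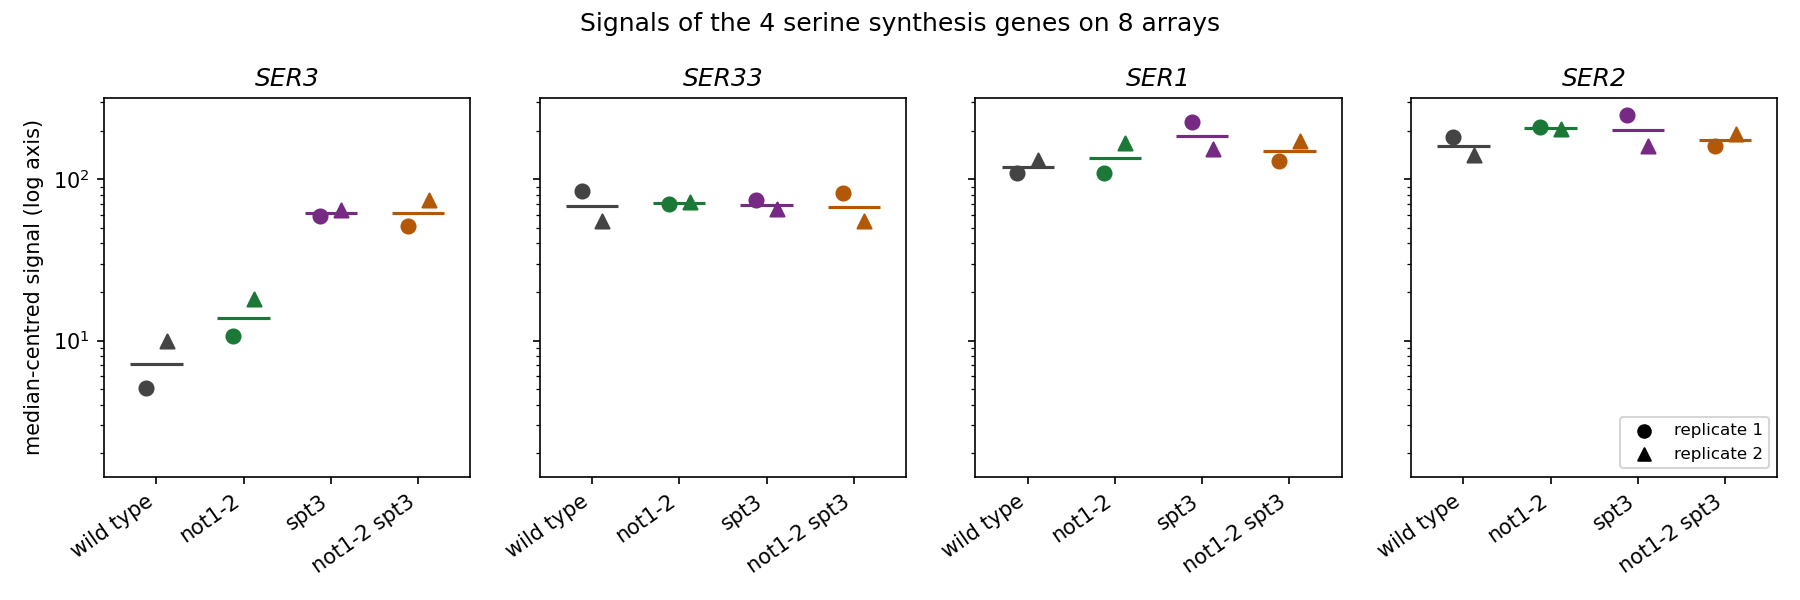
Median-centred signal (log axis) of SER3, SER33, SER1 and SER2 on each of the 8 arrays; circles are replicate 1, triangles replicate 2, and lines the geometric mean of a strain. SER3 sits between 5.08 and 17.99 on the 4 arrays with SPT3 and between 51.2 and 74.8 on the 4 without it, while the strain means of SER33 span 67.2 to 71.3.

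The wild-type level of SER3 was low on the array scale. Its geometric mean of 7.10 stood just above 6.99, the signal that a strain mean had to exceed for a probe set to be tested, and wild-type replicate 1 was below it. The level was above the floor of 1.72 on all 8 arrays, but that floor is a percentile and not a measured background. MF(ALPHA)1 in wild type gave 14.9 and 17.1, more than SER3 there, although cells of the a type are not known to make it. Whether the wild-type SER3 signal lay above background was not tested, and the ratios over wild type may be too low. SER3 was the only one of the 4 genes with replicate 2 above replicate 1 in every strain, by 1.95-fold in wild type, 1.70-fold in not1-2, 1.09-fold in spt3 and 1.46-fold in the double mutant. Without wild-type replicate 1 the log2 difference between spt3 and wild type was 2.65, and without wild-type replicate 2 it was 3.61.

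The difference of SER3 between not1-2 and wild type was not itself used in choosing the gene and was tested with limma over all 7043 probe sets. The wild-type arrays are, however, also the reference for differences that chose SER3, so the test is not independent of that choice. While SPT3 was intact, SER3 was 1.95-fold higher in not1-2 than in wild type, a log2 difference of 0.96 ± 0.47 (SE, 2 against 2 arrays), and the 4 arrays did not overlap. The difference did not pass: the limma adjusted p was 0.714, or 0.161 with the replicate number as a block. The 95% interval of the fold was 0.92 to 4.12, and 1.19 to 3.18 with the block. The replicate pairs gave 2.09-fold and 1.81-fold. The estimate rested on single arrays: leaving out the wild-type arrays in turn (replicate 1, then 2) gave 0.48 and 1.44, and leaving out those of not1-2 gave 1.34 and 0.58. Over all probe sets 0.0426% passed in this contrast, and 1.99% with the block. Arrays of not1-2 lay above those of wild type without overlap for 14.8% of probe sets, so the order of the 4 arrays is common on this chip.

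In cells without SPT3 the double mutant stood at 0.995 times the SER3 level of spt3 (log2 difference -0.01 ± 0.47, SE). The arrays of these strains overlapped, with both spt3 arrays lying between the double-mutant arrays. SER3 was chosen for being high in both strains, which favours levels near each other, so the value is a description with no test. In this contrast 0% of probe sets passed in limma, with the block or without it; 10 of 7043 had an unadjusted p under 0.05, and 46 with the block.

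The not1-2 difference without SPT3 minus that with SPT3, the interaction, was -0.97 ± 0.66 for SER3 on the log2 scale (SE). It is made of the differences that chose the gene and is likewise a description. Of all probe sets 0% passed in limma for the interaction, and 0.0852% with the block; 246 and 714 had an unadjusted p under 0.05.

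**Figure D2:**
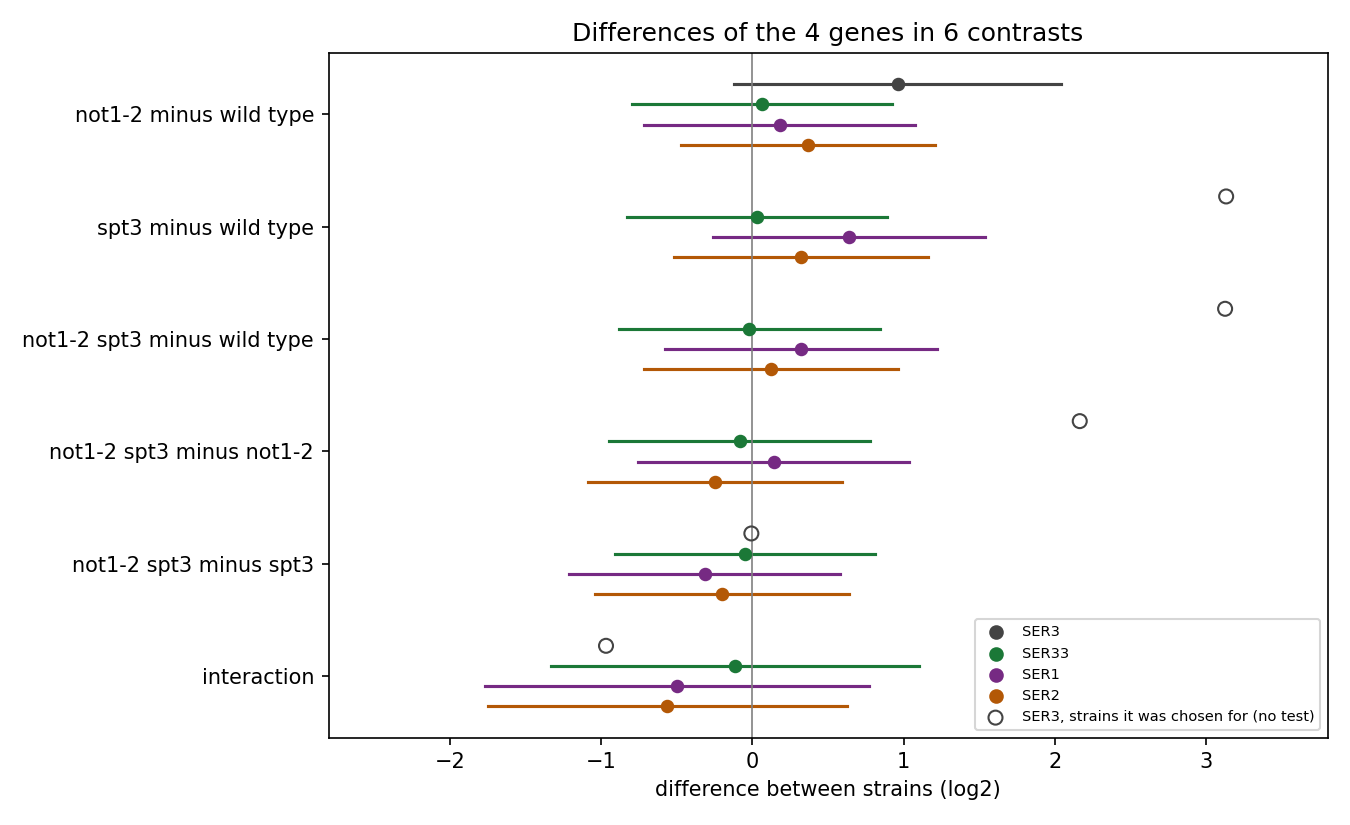
Differences between strains on the log2 scale for the 4 genes in 6 contrasts, with 95% intervals from the limma fit over all 8 arrays without the replicate block; open circles are SER3 in contrasts that use the strains it was chosen for and carry no interval. Every interval shown spans 0, and the open circles lie at 3.13, 3.12, 2.16, -0.01 and -0.97.

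SER33, the other isozyme of the first step, gave nearly the same level in every strain. Its signals were 84.3 and 55.2 in wild type, 70.2 and 72.4 in not1-2, 74.5 and 65.0 in spt3, and 82.5 and 54.8 in the double mutant. The arrays of all strains overlapped, and the highest and lowest arrays, 1.54-fold apart, came from wild type and the double mutant. The geometric means ran from 67.2 in the double mutant to 71.3 in not1-2, a ratio of 1.06. The spt3 strain stood at 1.02 times wild type, with a 95% interval of 0.56 to 1.85, and the double mutant at 0.94 times not1-2, with an interval of 0.52 to 1.71. The isozymes are closely related in sequence, and probe sequences were not used here. How much of either signal came from the other transcript was not tested.

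SER1 encodes the aminotransferase of the second step. Its signals were 109.1 and 130.7 in wild type, 109.6 and 167.1 in not1-2, 224.8 and 153.4 in spt3, and 129.5 and 171.8 in the double mutant. Both spt3 arrays lay above both wild-type arrays, which was so for 16% of all probe sets, while the arrays of not1-2 overlapped with wild type and those of the double mutant overlapped with wild type too. The geometric mean was 1.56-fold higher in spt3 than in wild type (0.64 ± 0.39 on the log2 scale, SE, 95% interval 0.84-fold to 2.90-fold, limma adjusted p = 0.864, and 0.365 with the block). The replicate 1 arrays gave 2.06-fold and the replicate 2 arrays 1.17-fold. In the double mutant SER1 was 1.102-fold above not1-2, with an interval of 0.59 to 2.05. The order of the strain means was wild type, not1-2, double mutant and spt3, and no neighbours in it differed beyond the spread of their arrays.

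SER2 encodes the phosphatase of the last step. Its signals were 182.9 and 141.8 in wild type, 211.0 and 204.1 in not1-2, 249.3 and 161.7 in spt3, and 160.5 and 190.9 in the double mutant. The not1-2 arrays lay above both wild-type arrays, as for 14.8% of all probe sets, and those of spt3 and the double mutant overlapped with wild type. The not1-2 mean was 1.29-fold above wild type (0.37 ± 0.36 on the log2 scale, SE, 95% interval 0.72-fold to 2.31-fold, limma adjusted p = 0.888, and 0.572 with the block). The spt3 mean was 1.25-fold above wild type, and the double mutant stood at 0.84 times not1-2 (95% interval 0.47 to 1.51). The interaction of SER2, -0.56 ± 0.51, did not pass either (limma adjusted p = 0.999, and 0.716 with the block).

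Taking SER33, SER1 and SER2 over the 6 contrasts, 0 of 18 limma tests passed, with the block or without it, and 0 had an unadjusted p under 0.05. Their log2 differences ran from -0.56 to 0.64. Over all probe sets the share past the threshold, without and with the block, was 0.0568% and 0.568% for spt3 against wild type, 0.071% and 0.199% for the double mutant against wild type, and 0.0284% and 2.36% for the double mutant against not1-2. With so few calls on the chip, a count of 0 among 3 genes says little by itself. The widest intervals, leaving the interaction aside, allowed between 0.43-fold and 2.90-fold for these genes. These limits are not a detection limit, since with 2 arrays a strain larger differences could also miss the threshold. SPT3, at a log2 difference of -3.53 in spt3 against wild type, had a limma adjusted p of 0.112 without the block and 0.0206 with it.

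**Figure D3:**
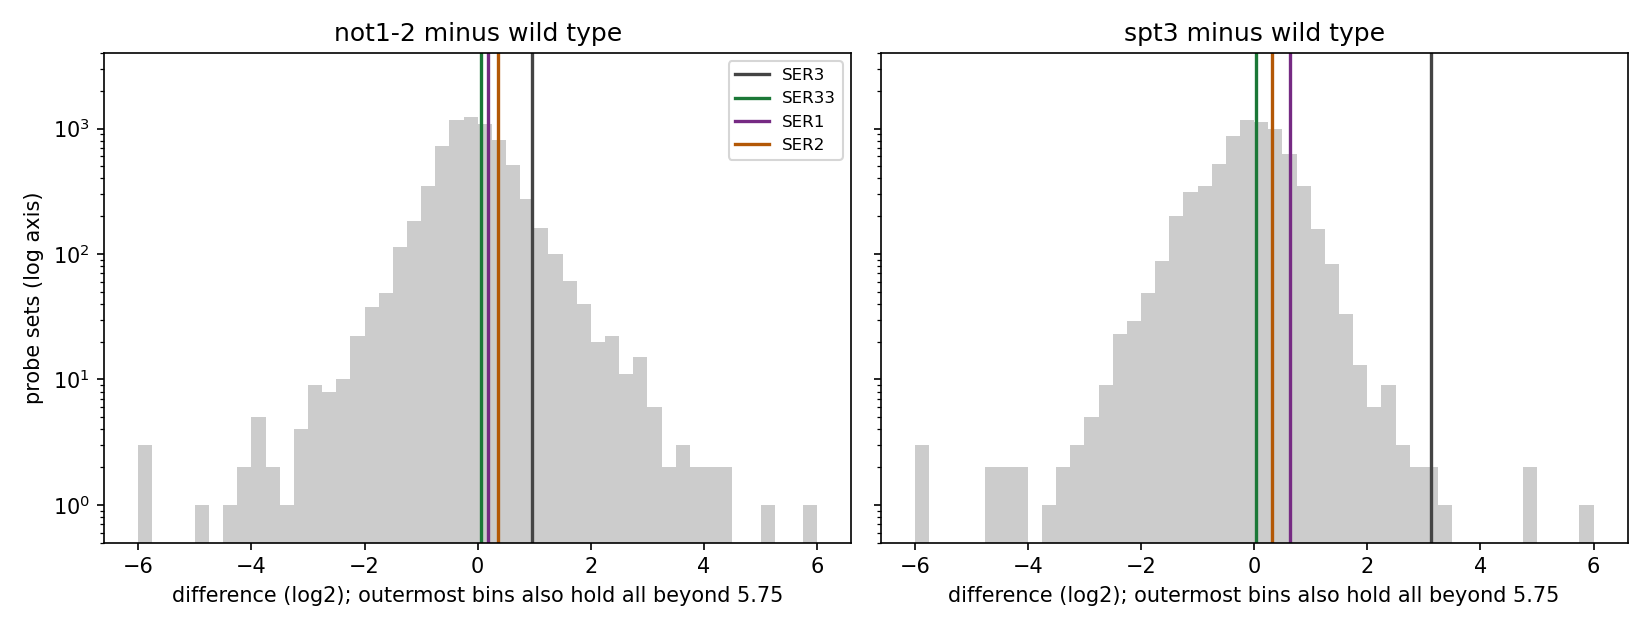
Number of probe sets (log axis) by log2 difference from wild type in not1-2 and in spt3, with vertical lines at the 4 genes. In spt3 the SER3 line, at 3.13, stands in the right tail, at percentile 99.9 of 7043 probe sets. That value chose the gene, so its rank is a description. The other 3 lines lie between 0.03 and 0.64.

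None of the measured neighbours of SER3 passed. This says little, since at most 0.071% of all probe sets passed in any contrast, or 2.36% with the block. SRG1, whose annotated end overlaps the start of SER3, was named by no probe set and was not analysed here; which stretch of SER3 its probe set covers was not examined, so a share of SRG1 in the SER3 signal was not tested. AIM9, the next gene before SRG1, gave 13.7 and 8.12 in wild type, 17.4 and 9.87 in spt3, and 19.7 and 10.3 in the double mutant. Its log2 difference in spt3 was 0.31 ± 0.61 (SE, limma adjusted p = 0.916). UTP7, a ribosome biogenesis gene after SER3, was at 0.40 ± 0.40, and GET2, of the tail-anchored protein insertion pathway, at -0.04 ± 0.39, with limma adjusted p of 0.866 and 0.984. Between the double mutant and not1-2 the 3 genes were at 0.99, -0.40 and 0.18, and none passed in any contrast, with or without the block.

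Likeness to SER3 was measured as Pearson's r of log2 signals over the 8 arrays, which share their strains and replicate numbers, among 5354 other genes. The highest were DOP1 (0.975), CYT1, which encodes cytochrome c1 (0.971), YLH47 (0.970), YHR112C (0.965), OXP1, an oxoprolinase gene (0.961), and MPM1, a mitochondrial membrane protein gene (0.953). Each of them spanned 2.02-fold to 2.56-fold over the arrays, against 14.7-fold for SER3, and in each of them all 4 arrays without SPT3 lay above the 4 others. Picking genes by r with SER3, itself chosen for that split, favours this order, so it is a description. Of all probe sets 3.52% had it. Within the arrays with SPT3 and those without it, the order differed from that of SER3 in some. In YLH47 and OXP1 wild-type replicate 2 lay above both not1-2 arrays. YLH47, for one, gave 55.8 and 82.3 in wild type, 82.1 and 77.7 in not1-2, 133.8 and 132.6 in spt3, and 138.2 and 142.6 in the double mutant. The most opposed were REE1 (-0.971), with 2111 and 1051 in wild type and 235 to 416 on the 4 arrays without SPT3, and NCW1 (-0.970). Within the pathway r with SER3 was 0.711 for SER1, 0.139 for SER2 and -0.216 for SER33. Among all other probe sets tested these stood at percentiles 92.6, 59.3 and 41.3 of r. They are descriptions over arrays that share strains and replicate numbers.

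**Figure D4:**
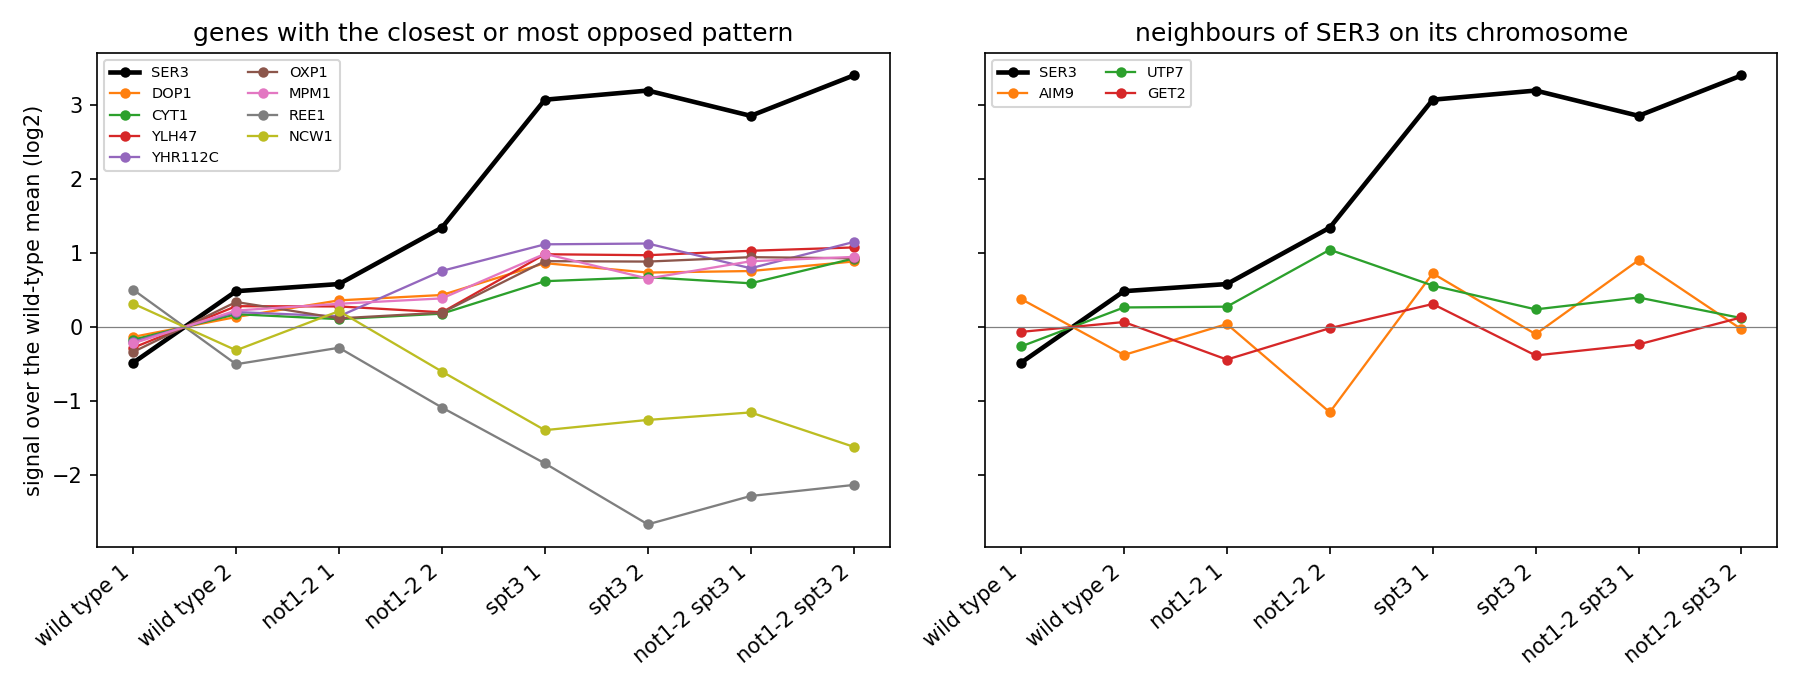
Log2 signal relative to the wild-type mean on each of the 8 arrays, for SER3 (thick line) beside the 6 genes of highest and 2 of lowest r (left) and the 3 measured neighbours (right). Between spt3 and wild type the 6 like genes differ by 0.65 to 1.12 on the log2 scale and SER3 by 3.13; the neighbours differ by -0.04 to 0.40.

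Genes that use serine or pass on its one-carbon unit were set beside the synthesis genes. Of the 20 listed, all 20 were measured, and 0 passed in any of the 6 contrasts without the block. At most 0.071% of all probe sets passed in any of them, so this count says little. In spt3 against wild type 12 lay above 0, with a median of 0.07 against -0.02 over all probe sets, and in the double mutant against not1-2 15 did, with a median of 0.41 against 0.06. In not1-2 against wild type 8 lay above 0, with a median of -0.26 against -0.08. For the double mutant against wild type 10 did, with a median of -0.0022 against -0.05. GCV3, a subunit of the glycine cleavage system, was the single one to pass with the block, as lower in not1-2: its signals were 3062 and 1708 in wild type, 1362 and 809 in not1-2, 2368 and 1019 in spt3, and 1820 and 1135 in the double mutant. The log2 difference of not1-2 from wild type was -1.12 ± 0.20 (blocked SE, limma adjusted p = 0.033, and 0.745 without the block). Of all probe sets 1.99% passed with the block in that contrast. MIS1, a mitochondrial one-carbon enzyme, was at -0.81 ± 0.33 in not1-2 against wild type and at 1.01 ± 0.33 in the double mutant against not1-2, with limma adjusted p of 0.633 and 0.518. CHA1, the serine deaminase that Cha4 activates when serine is present, gave 22.4 and 9.36 in wild type and 5.05 to 10.6 on the arrays without SPT3, with overlap, at -0.99 ± 0.67 in spt3 (limma adjusted p = 0.864).

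Of 18 listed regulators of SER3 and SRG1, 14 were measured and 0 passed in any contrast, which says little where at most 2.36% of all probe sets passed in any of them; SWI3, CTR9 and GCN4 were too dim and SRG1 had no probe set. Their median in spt3 against wild type was 0.17, against -0.02 over all probe sets, with 12 of 14 above 0. In the double mutant against not1-2 it was 0.24, against 0.06 over all probe sets, with 11 of 14 above 0. CHA4, the activator of SRG1 and CHA1, gave 15.9 and 18.7 in wild type, 14.0 and 17.2 in not1-2, 18.03 and 18.2 in spt3, and 22.9 and 21.3 in the double mutant. Both spt3 arrays lay within the range of the wild-type arrays, at a log2 difference of 0.07 ± 0.35 (limma adjusted p = 0.964). Both double-mutant arrays lay above all the others, at 0.51 ± 0.35 against not1-2 (limma adjusted p = 0.793). How many probe sets had that order was not counted. SPT16, which encodes a subunit of the histone chaperone FACT, was at 0.74 ± 0.34 in the double mutant against not1-2, and SPT2, a chromatin protein gene, at 0.71 ± 0.41 in spt3, with limma adjusted p of 0.679 and 0.864. Of the 10 SAGA core genes SPT3 alone passed, with the block, in the 3 contrasts that involve its loss.

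Neighbouring metabolism was read against the same low shares of calls, at most 0.071% without the block and 2.36% with it. Of 7 measured glycolytic genes at and below the branch to serine, 0 passed in either fit. ENO1, an enolase gene, was at 1.13 ± 0.52 in spt3 and 1.17 ± 0.52 in not1-2 against wild type (limma adjusted p = 0.864 and 0.667). TDH1, of the same list, was at 1.39 ± 0.66 in not1-2 against wild type and at -1.45 ± 0.66 in the double mutant against not1-2. Its limma adjusted p was 0.711 and 0.674 without the block. With the block it was 0.0626 and 0.05, the last at the threshold but not under it. Of 28 measured genes for the synthesis of other amino acids under Gcn4, the starvation activator, 20 lay above 0 in spt3 against wild type, with a median of 0.20 against -0.02 over all probe sets, and 17 did in the double mutant against not1-2, with a median of 0.06 that equalled that of all probe sets. ARG3, an arginine synthesis gene, was the one to pass, with the block and in not1-2 against wild type (2.46 ± 0.44, blocked SE, limma adjusted p = 0.0332, and 0.223 without the block). ARG3 gave 15.5 and 16.0 in wild type, 67.5 and 111.5 in not1-2, 75.9 and 31.9 in spt3, and 39.1 and 47.5 in the double mutant, so all 6 mutant arrays lay above both wild-type arrays. How many probe sets had that order was not counted. Arrays of not1-2 alone lay above those of wild type for 14.8% of probe sets, and arrays of spt3 alone for 16%. ARG1, in the same pathway, was at 1.56 ± 0.47 in spt3 and 1.16 ± 0.47 in the double mutant against not1-2, with limma adjusted p of 0.773 and 0.644. HOM2, of the same list, went the other way in not1-2 against wild type, at -1.25 ± 0.315 (limma adjusted p = 0.366, and 0.0626 with the block). In that contrast 14 of the 28 genes lay above 0, with a median of 0.02 against -0.08 over all probe sets.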

How the data were processed

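Per the labels, the authors labelled polyA RNA with biotin and hybridised it to Affymetrix arrays. The deposited file holds a linear intensity for every probe set on every array. What software computed it is not stated in the labels. With 2% trimmed from either end, all arrays had a mean of 100.1. Of 9335 probe sets 60 controls were left out. Array medians differed by 0.419 (log2), so arrays were centred on their medians, with a floor at the 10th percentile (1.72), and put on the log2 scale. Probe sets whose highest strain mean exceeded the 25th percentile, 6.99, were kept (7509; all 4 members passed), with 1 per gene, which left 7043. Gene names come from the platform annotation and RefSeq assembly R64.

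A mean per strain was fitted over all 8 arrays (limma 3.58.1, R 4.3.3) with the trend option, and p-values were adjusted over the 7043 by Benjamini-Hochberg at a threshold of 0.05; the fit was checked on simulated data. Residual degrees of freedom were 4, or 3 with the replicate number as a block. Same-numbered arrays deviated together in all 6 strain pairs (r from 0.188 to 0.739), so the numbers were taken to pair the arrays. Every replicate 1 array also had a higher ACT1 ratio than every replicate 2 array. A pairing of samples and a shared difference in RNA quality therefore cannot be told apart in the block. Arrays carry no read depth; 2 per strain limit the precision. Named genes were the members, SPT3 and TRP1, and the 2 annotated genes on each side of SER3. Also named were the 6 highest and 2 lowest in r with SER3. From each list, members that passed or else had the smallest p were eligible, and only some of these are named. Mating-type genes served as a strain check; YDR034C-A, CHA4 beside its list and single values of further genes were named after their values were seen. SER3 in the double mutant against spt3 and in the interaction was planned as a test and is given as a description, since those values chose it. The members and lists were chosen with earlier results of these data known. No sequences are printed, since none of these genes' sequences were used here.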

Additional observations from a re-analysis of the deposited data

How the results depend on the processing

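In each contrast 0 of the tested members passed under every alternative run: 3 scalings, a lower floor, 2 other filters, all probe sets, no trend, fewer arrays, a threshold of 0.1, the replicate block, the ACT1 ratio, and each array left out. Over those settings the lowest limma adjusted p was 0.158 for SER3 and 0.365 for the other 3 genes. The replicate block changed no call of a member; SER3 in not1-2 against wild type stayed at 0.96 with the block (limma adjusted p = 0.161), and it moved calls of GCV3, ARG3 and SPT3 as given above. SER3 kept its direction in all alternatives in 5 of the 6 contrasts. With each array left out in turn, SER3 lay between 2.65 and 3.61 in spt3 and between 2.64 and 3.61 in the double mutant against wild type, and its interaction between -1.45 and -0.48, the ends set by the wild-type arrays. Differences near 0 changed sign, and the cause was not tested. SER3 in the double mutant against spt3 became 0.0453 (quantile), 0.0536 (no centring), 0.0531 (least-varying probe sets), 0.078 (block and ACT1 ratio) and 0.0795 (ACT1 ratio alone, chosen after seeing the data) and 0.20 (replicate 2 arrays alone, chosen likewise), and ran from -0.28 to 0.27 with arrays left out.

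SER33 became -0.0223 (quantile) and -0.0872 (least-varying) in spt3 against wild type, 0.15 (no centring), 0.0797 (block and ACT1 ratio) and 0.14 (ACT1 ratio alone) in the double mutant against wild type, and 0.006, 0.0104 and 0.01 against spt3 under the 3 scalings. With arrays left out SER33 ran from -0.24 to 0.37 in not1-2, -0.28 to 0.34 in spt3 and -0.33 to 0.29 in the double mutant against wild type, -0.38 to 0.21 in the double mutant against not1-2, -0.34 to 0.24 against spt3, and -0.42 to 0.19 for the interaction. SER1 ran from -0.12 to 0.48 in not1-2 against wild type and -0.16 to 0.44 in the double mutant against not1-2. SER2 ran from -0.0636 to 0.30 in the double mutant against wild type and -0.51 to 0.11 against spt3. Of the 6 genes most like SER3, 3 remained after the mean of each replicate number was taken out. A strain left with 1 array was assumed to vary like the others.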
